A study of Mus musculus with 4 samples.

Results

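The genes described here are 8 nuclear factors of the neurogenic programme: the neurogenins Neurog1 and Neurog2, the NeuroD factors Neurod1 and Neurod4, the atonal homologue Atoh1, the Hes-family factor Hes6, and the zinc finger factors Insm1 and Myt1. They were taken as every non-control probe that carries one of these gene names, which gave 9 probes of the 41174 on the array, 2 for Hes6 and 1 for each other gene. Total RNA was labelled with Cy3 from 0.25 ug per sample and hybridised to 4 single-colour Agilent whole-genome mouse arrays. The compared samples were 3 neural progenitor cell (NPC) lines and a pool of RNA called Mixture, and the study asked which transcription factors stand above Mixture in the lines. NS21 (strain 129/Ola) was grown from embryonic stem cell line 21, NS195R (strain 129/Sv) from line 195R and NSEB5-2C (strain 129/Ola) from line EB5. Mixture, from Swiss Webster mice, combined equal masses of RNA of lung, liver, spleen, thymus, kidney and heart with day 11 embryo. Each line was hybridised on 1 array, so differences between lines include technical error, and line and strain cannot be told apart for NS195R. No line has the strain of Mixture either, and there strain and tissue cannot be told apart. Nothing in the labels ties the lines to more than 1 culture each, and p-values measure only the spread between these arrays.

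Proneural factors are basic helix-loop-helix (bHLH) proteins that push a dividing progenitor to leave the cell cycle and become a neuron. They pair with E proteins, bind E-box DNA words and switch on Notch ligands, which in turn raise Hes repressors in the neighbouring cell and hold it as a progenitor. Neurog1, Neurog2 and Atoh1 act early in this cascade, Neurod1 and Neurod4 act later, Insm1 and Myt1 are induced in committed cells, and Hes6 differs from other Hes proteins in opposing Hes1 and favouring neuronal differentiation. In culture, NPC lines held as progenitors are known to keep much of this programme low.

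Hes6 was the member measured on every array, and its upstream sequence is shown because E-box words there are the kind that proneural factors bind. RefSeq lists 2 start sites for Hes6 on the minus strand of chromosome 1 in build GRCm38.p6. The 250 bases before them lie at chr1:91414039-91414288 and chr1:91413223-91413472. Capitals mark the word CAGNTG on either strand, the reverse being CANCTG.
Hes6 farther start: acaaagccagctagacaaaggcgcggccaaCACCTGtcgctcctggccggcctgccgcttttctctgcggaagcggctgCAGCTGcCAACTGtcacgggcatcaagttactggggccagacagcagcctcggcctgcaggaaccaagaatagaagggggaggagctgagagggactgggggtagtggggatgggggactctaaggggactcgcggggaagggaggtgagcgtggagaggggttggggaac
Hes6 nearer start: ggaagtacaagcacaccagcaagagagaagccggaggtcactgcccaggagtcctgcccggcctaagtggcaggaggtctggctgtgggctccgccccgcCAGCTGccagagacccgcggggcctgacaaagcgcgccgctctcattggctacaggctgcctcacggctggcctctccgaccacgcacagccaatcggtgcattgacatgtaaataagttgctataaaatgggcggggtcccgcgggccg
The window of the farther start held 3 such words and that of the nearer start 1. Of the 32817 windows of 250 bases in the RefSeq table, 44.8% held at least 1 and 13.2% held 2 or more. The windows of Neurog1, Neurog2, Neurod1, Neurod4, Atoh1 and Myt1 held 0, and Insm1 is not listed there. The word CACNAG, on either strand, to which Hes-type repressors bind, occurred 2 times before the farther start of Neurod4, 1 time before its nearer start and 1 time before the nearer start of Hes6. The 2 windows of Neurod4 overlap, and the match in the nearer one is also 1 of the 2 in the farther one. CACNAG was found in 36.7% of all windows. No match of it overlapped a CAGNTG word.

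The Mixture array carried the signal that its title calls for, while the neural progenitor markers varied by line. Between 23983 and 25690 spots were well above background in the NPC lines, against 26840 in Mixture, and 0 were saturated. One label of Mixture names a doxycycline-treated NPC line, but all 13 markers of the pooled tissues and of embryo were well above background there. Their summed intensity was between 36.0 and 69.2 in the lines and 372532 in Mixture. Of the 13, NS21 had 2 well above background, NS195R 3 and NSEB5-2C 1. With limma, 12 were lower in the lines, where 8.85% of all 20002 gene names tested were lower. Of 11 neural progenitor markers, NS21 had 8 well above background, NS195R 11 and NSEB5-2C 9, against 10 in Mixture. Sox2, a factor of neural stem cells and 1 of these, had intensities of 6.90, 1620 and 422.6 in NS21, NS195R and NSEB5-2C, against 21.7 in Mixture, the value of NS21 being too dim for the flag.

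In the NPC lines the proneural factors were mostly silent or near the limit of the array, with NS195R set apart. Of the 8 genes, NS21 had 1 well above background, NS195R 4 and NSEB5-2C 2, against 2 in Mixture. Over all 27953 gene names these shares were 55.4%, 57.5% and 53.9%, against 61.8% in Mixture. Hes6 was measured on all 4 arrays, Insm1 in NS195R and Mixture, Myt1 and Neurod4 in NS195R alone, and Neurog1 in NSEB5-2C alone. In bulk RNA, fewer cells that express a gene and less RNA per cell cannot be told apart.

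**Figure D1:**
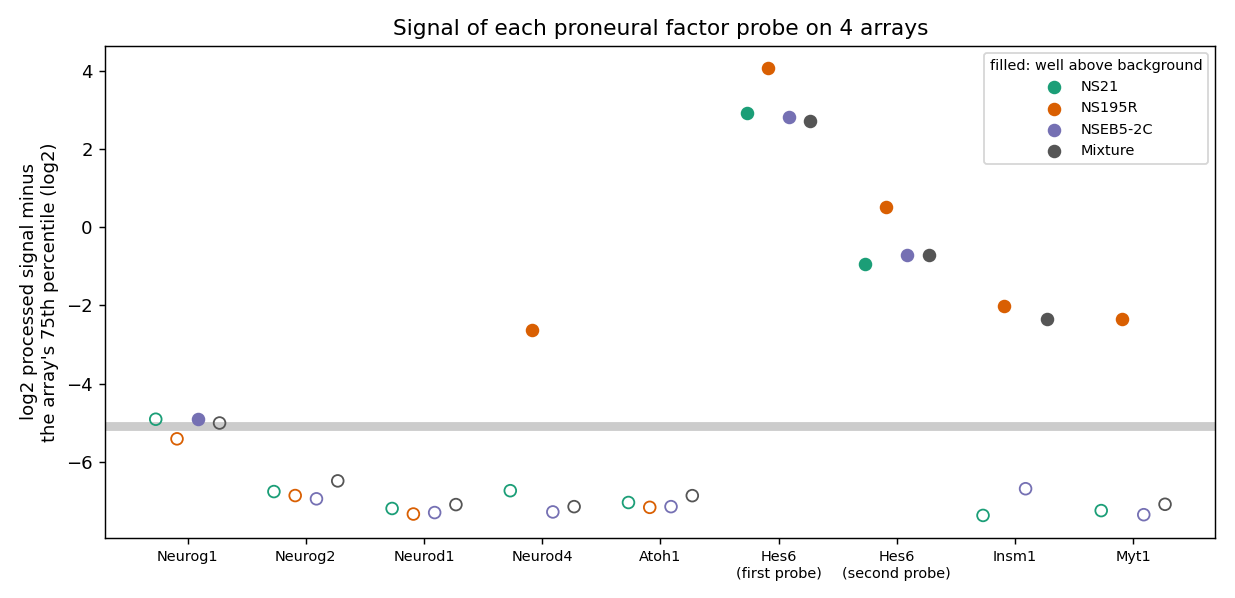
Signal of the 9 probes (log2 processed signal minus the 75th percentile of the array) in NS21, NS195R, NSEB5-2C and Mixture, each point being 1 array. Filled points are well above background, open points are not, and the grey band spans the lowest signals well above background on the arrays; the highest point of Hes6, Insm1, Myt1 and Neurod4 is NS195R.

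The early factors gave no usable level. Neurog2, which drives cortical and spinal progenitors to neurons, had intensities of 2.20, 2.17 and 1.88 in NS21, NS195R and NSEB5-2C, against 2.88 in Mixture. Atoh1, needed for cerebellar granule neurons and hair cells of the ear, had 1.81, 1.76 and 1.64 in these lines, against 2.22 in Mixture. All 8 of these values were below 6.36, the lowest of the 4 arrays' lowest signals well above background, and no difference can be read from them. The scanner software puts surrogate values in place of very dim signals, so such a value is a limit and not a measured level. Each gene was called positive and significant over background by the scanner software on 1 array, that of Mixture.

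Neurog1, which specifies sensory and other neurons, lay at the limit itself. Its intensities were 7.93, 5.92 and 7.72 in NS21, NS195R and NSEB5-2C, against 8.04 in Mixture. Only the value of NSEB5-2C was flagged well above background, although NS21 and Mixture were as bright. The signal was positive and significant on 4 of 4 arrays, and the spot's error estimate was between 1.71 and 1.89 in the lines, against 2.15 in Mixture. The log2 difference between the lines and Mixture was -0.07 (SE 0.43, limma adjusted p = 0.926), and the 4 arrays overlapped within these errors.

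Neurod1, a factor of late neuron and endocrine differentiation, reached no measured level either. Its intensities were 1.63, 1.56 and 1.47 in NS21, NS195R and NSEB5-2C, against 1.89 in Mixture, each about as large as its own error estimate. With Neurog2 and Atoh1 it made 3 of 8 genes without a measured level anywhere, where the share over all gene names was 28.4%.

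Neurod4, which acts with or after the neurogenins in retina and hindbrain, was measured in NS195R only. NS195R had an intensity of 41.1 (spot error estimate 4.39), NS21 of 2.23 and NSEB5-2C of 1.49, against 1.82 in Mixture. NS195R thus lay at least 5.40-fold above NS21, at least 5.94-fold above NSEB5-2C and at least 5.20-fold above Mixture. Such a bound sets the measured array against the lowest signal well above background on the dim array, or the dim spot's own signal if higher.

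Insm1, a zinc finger factor of newborn neurons and endocrine cells, was the member with a measured level in NS195R and Mixture but in neither other line. NS195R had an intensity of 62.3 (spot error estimate 6.38), NS21 of 1.44 and NSEB5-2C of 2.25, against 50.6 in Mixture (5.31). NS195R lay 1.26-fold above Mixture, a log2 difference of 0.34 that turned to -0.16 with median scaling. Mixture lay at least 6.49-fold above NS21 and at least 7.14-fold above NSEB5-2C. Between lines, NS195R was at least 8.20-fold above NS21 and at least 9.02-fold above NSEB5-2C.

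Myt1, a zinc finger factor that represses progenitor genes and carries the oligodendrocyte-linked name myelin transcription factor, again stood out in NS195R. NS195R had an intensity of 49.1 (spot error estimate 5.14), NS21 of 1.57 and NSEB5-2C of 1.42, against 1.90 in Mixture. The bounds were at least 6.46-fold over NS21, at least 7.10-fold over NSEB5-2C and at least 6.21-fold over Mixture. Insm1, Myt1 and Neurod4 were thus dim in the same 2 lines, both of strain 129/Ola.

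Hes6 was bright everywhere, and both of its probes put NS195R first. By the first probe, NS195R had an intensity of 4209, NS21 of 1803 and NSEB5-2C of 1623, against 1690 in Mixture. By the second, NS195R had 360.9, NS21 123.2 and NSEB5-2C 140.9, against 158.1 in Mixture. After scaling, NS195R lay 2.21-fold above NS21 and 2.39-fold above NSEB5-2C by the first probe, and 2.77-fold and 2.36-fold by the second. NS21 and NSEB5-2C stayed within 1.18-fold of each other by both probes and close to Mixture, at 1.16-fold and 1.07-fold of it by the first probe. By the second probe, Mixture lay 1.18-fold above NS21 and 1.01-fold above NSEB5-2C. NS195R was 2.56-fold above Mixture by the first probe and 2.34-fold by the second.

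Against Mixture, the NPC lines as a group showed no call for any member. With limma, 0 of the 5 genes with a measured level somewhere were higher and 0 lower at an adjusted p under 0.05, and 0 had an unadjusted p under 0.05. Of all 20002 gene names tested, 0.84% were called higher and 8.85% lower. Of all 29699 probes tested, 5021 were higher and 4097 lower by limma at an unadjusted p under 0.05. The unadjusted counts given below for the other lists are to be read beside these. On simulated arrays of this design the fit returned the sizes put in but called none of those changes. Fewer probes were changed there than were called in these data, which makes the adjusted limit stricter. The simulation therefore does not measure how often this fit misses a change. A missing call is not read here as equal levels. Hes6 averaged 3.26 ± 0.69 log2 units in the lines (SD, n = 3) and 2.71 in Mixture (n = 1), a difference of 0.55 (SE 0.70, limma adjusted p = 0.642). This difference was 0.02 when the arrays were scaled on the median of probes above background on all of them. Probes measured on all 4 arrays lay a median of 0.75 log2 units above Mixture in the lines, and relative to that shift Hes6 was at -0.20. Insm1 had a difference of -3.00 (SE 2.60, limma adjusted p = 0.496), Neurod4 of 1.60 (SE 2.28, limma adjusted p = 0.681) and Myt1 of 1.43 (SE 2.54, limma adjusted p = 0.741). For these genes the mean over the lines joins 1 measured array with 2 dim ones. Without NS195R the difference of Insm1 was -4.68, that of Myt1 -0.21 and that of Neurod4 0.14. The lines left were dim for these genes, so these values rest on limits and on no measured spread. With dim values raised, Insm1 lay at -2.70 from Mixture in NS21 and at -2.84 in NSEB5-2C. Over all probes too, limma called 0 when any 1 of the lines was left out, although between 2449 and 4002 were higher and between 3828 and 4643 lower at an unadjusted p under 0.05.

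**Figure D2:**
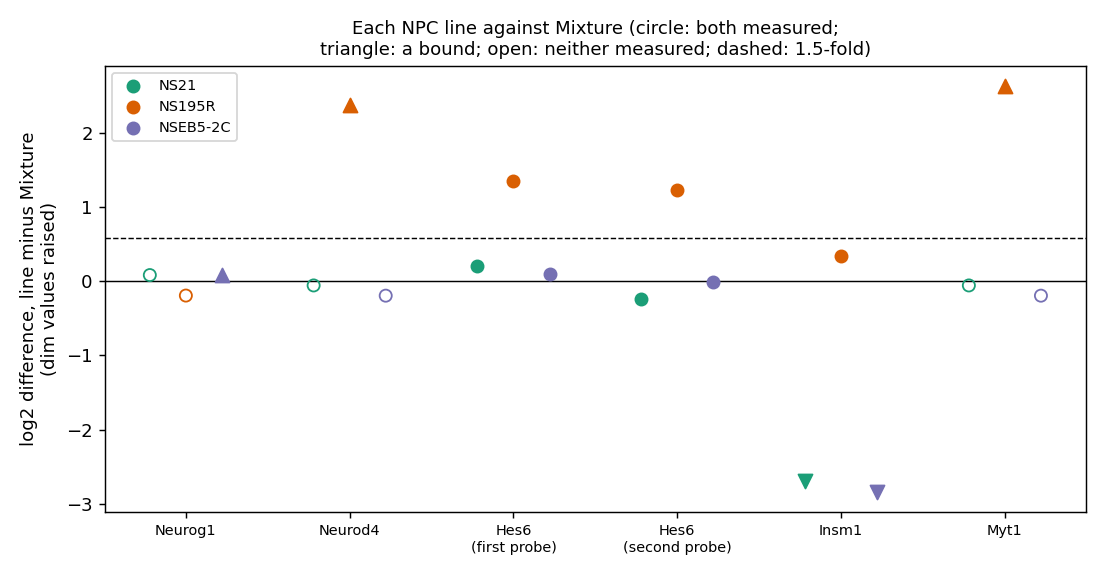
Log2 difference between each NPC line and Mixture for the 6 probes above background on at least 1 array, with dim values set at each array's limit, its lowest signal well above background. Circles compare measured arrays, triangles are bounds, open circles have no measured side, and the dashed line is 1.5-fold; NS195R alone rises past that line, for Hes6, Neurod4 and Myt1.

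The study's own rule kept none of the members. A gene had to reach 1.5-fold of Mixture in NSEB5-2C and in either NS21 or NS195R, and a measured level in the lines concerned was required here as well. It was passed by 0 of 8 proneural factors and by 25.7% of all gene names. In NSEB5-2C, Hes6 was 1.07-fold of Mixture and Neurog1 1.06-fold, and Insm1, Myt1 and Neurod4 were not well above background. Insm1 and Neurog1 also missed the rule in NS21 and NS195R.

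For 4 of 8 genes, Hes6, Insm1, Myt1 and Neurod4, NS195R exceeded each of the other lines by 2-fold or more, where this held for 7.36% of all gene names. NS21 did so for 0 of 8 (5.23% of all gene names) and NSEB5-2C for 0 of 8 (4.01%). Below both other lines by as much, NS195R had 0 of 8 (4.21%), NS21 0 of 8 (2.89%) and NSEB5-2C 0 of 8 (4.51%). Myt1 and Neurod4 were above background in NS195R and on no other array, a pattern of 2.53% of all gene names. These are sizes without a test. Repeated spots of a probe with an intensity between 25 and 100 had a median SD of 0.0934 and a highest SD of 0.193 log2 units on the NS195R array, which covers spot error only.

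**Figure D3:**
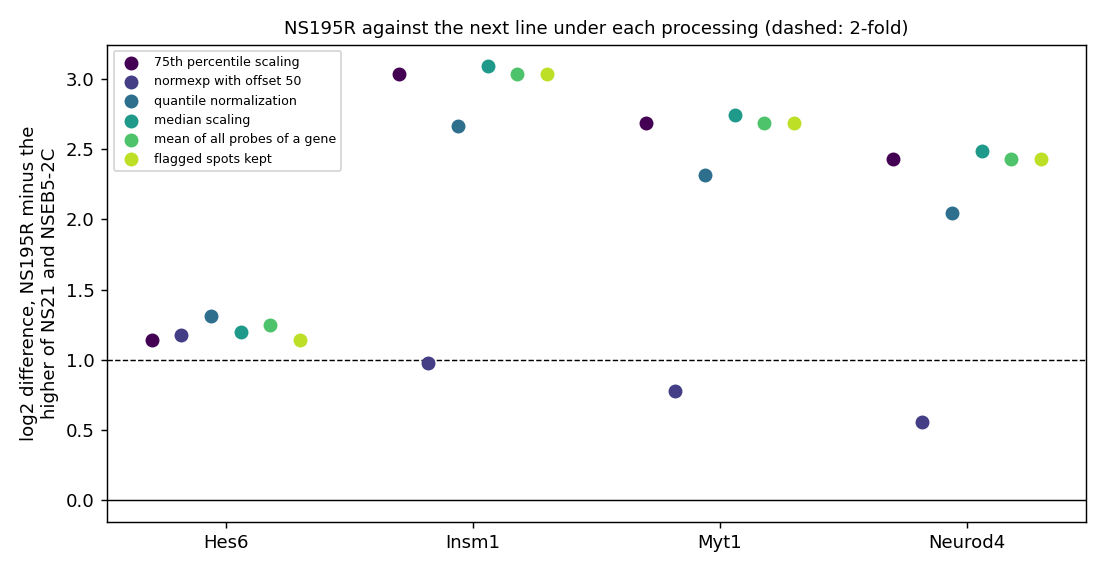
Log2 difference between NS195R and the brighter of NS21 and NSEB5-2C for Hes6, Insm1, Myt1 and Neurod4, each point being 1 way of processing, with 2-fold dashed. Under normexp, Hes6 stays at 1.18 and Insm1, Myt1 and Neurod4 lie at 0.97, 0.78 and 0.56, below the dashed line; all other points are above it.

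The size for the 3 dim genes depended on the background correction. With normexp and an offset of 50, NS195R was 2.27-fold above the next line for Hes6, but 1.96-fold for Insm1, 1.71-fold for Myt1 and 1.47-fold for Neurod4. That setting left 1 of 8 members past 2-fold in NS195R, and 3.55% of all gene names. NS195R was still the brightest line for each of these genes.

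Other neural bHLH factors varied by line. Of 14 such genes, 5 were higher in NS195R by 2-fold or more than in each of the other lines. That held for 7.36% of all gene names. Olig1 and Olig2, bHLH factors of the oligodendrocyte lineage, had 13376 and 5412 in NS195R and were not well above background in the other lines. Atoh7, a retinal relative of Atoh1, had 1.46, 3.93 and 1.33 in the lines, all below the limit, against 58.5 in Mixture. With limma, 0 of the 8 measured genes of the list were called in either direction, while an unadjusted p under 0.05 was reached by 2 genes, both lower. Atoh7 was 1 of these and entered the test through Mixture alone, so that its p rests on no measured spread. Under normexp the count of 5 became 3. Atoh8, another atonal relative, was brightest in NS21, at 68.4, 28.5 and 22.2 in NS21, NS195R and NSEB5-2C, against 100.8 in Mixture.

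**Figure D4:**
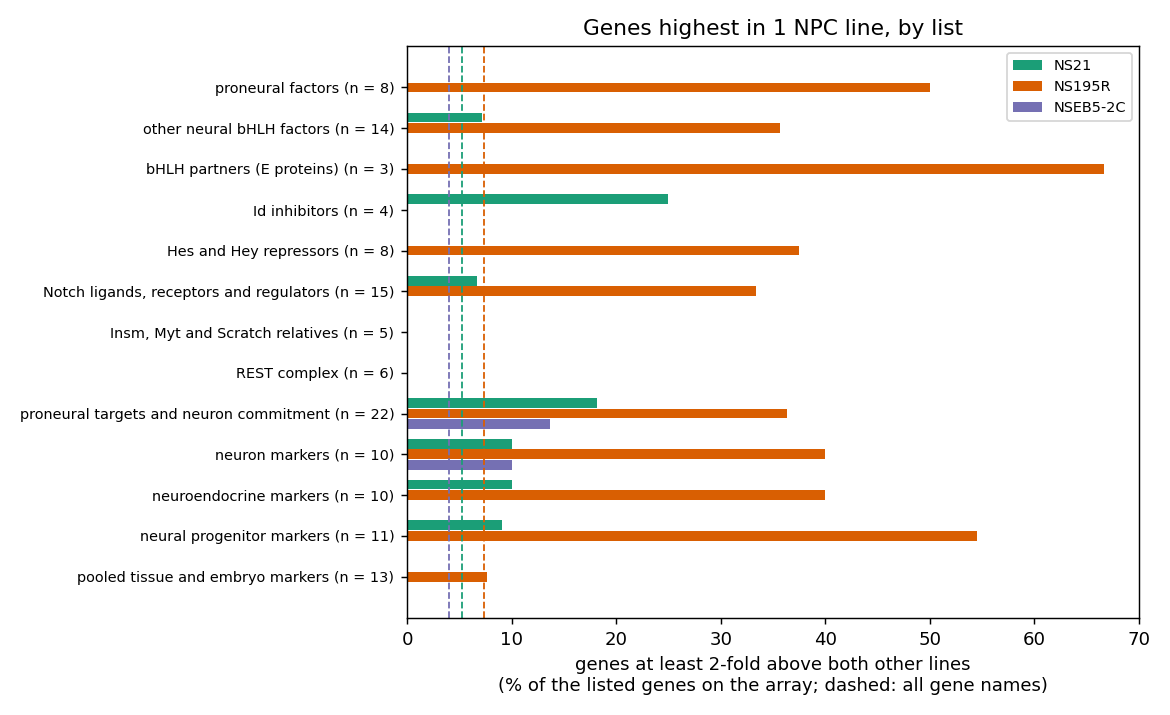
Share of the genes of each list on the array brightest by 2-fold or more in NS21, NS195R or NSEB5-2C, with n as the number of genes and the share over all gene names dashed. The bar of NS195R is the longest in every list but those of the Id genes, the relatives of Insm1 and Myt1, and the REST complex, where it is absent; it stands for 4 of 8 proneural factors and 2 of 3 E protein genes.

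The partners and inhibitors of bHLH factors were measured on every array. The E protein genes Tcf3, Tcf4 and Tcf12, which encode the dimer partners of proneural factors, all passed the 1.5-fold rule. Of the gene names tested, 36.0% passed it. With median scaling 2 of the 3 passed, where 22.9% of gene names did. Tcf4 and Tcf12 were 2.76-fold and 3.03-fold higher in NS195R than in the next line, while Tcf3 differed by 0.30 log2 units between the highest and lowest line. None of these 3 passed limma, and Tcf3 alone had an unadjusted p under 0.05. Among the Id genes, whose products tie up E proteins, limma called 0 of 4, and 1 was lower at an unadjusted p under 0.05. Id4 had intensities of 31.3, 63.6 and 87.7 in NS21, NS195R and NSEB5-2C, against 319.5 in Mixture.

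Notch genes, which proneural factors control and answer to, also included several highest in NS195R. Of 15 ligands, receptors and regulators, 5 were brightest in NS195R by 2-fold or more, 3 of 15 under normexp, and 2 were dimmest there by as much. The shares over all gene names were 7.36%, 3.55% and 4.21%. The ligand gene Jag2, 1 of the dimmest, had 116.4, 1.54 and 21.1 in NS21, NS195R and NSEB5-2C, against 103.7 in Mixture. The ligand gene Dll1 had 1.80, 240.4 and 12.5 in NS21, NS195R and NSEB5-2C, against 115.0 in Mixture, and Dll3 had 23.9, 179.3 and 3.35, against 3.32 in Mixture. By limma 0 of the 15 were called. Without adjustment, 1 was higher and 2 were lower with a p under 0.05. The Notch effector Hes5, of the Hes and Hey list, was 218.2 in NS195R and 2.88 and 3.45, below the limit, in NS21 and NSEB5-2C, against 124.2 in Mixture. That list had 3 of 8 genes highest in NS195R by 2-fold, and 2 under normexp. Its 1 called gene was Hey2 (limma adjusted p = 0.0266), which entered the test through Mixture alone. Its values in the lines are dim ones, so that p rests on no measured spread, and the lines lay at least 2.46-fold below Mixture by the mean bound.

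Genes that mark commitment to the neuronal fate lay in either direction in NS195R. Of 22 proneural targets and commitment genes, 8 were brightest in NS195R by 2-fold or more and 3 were dimmest there by as much. Over all gene names these shares were 7.36% and 4.21%. Under normexp the count of 8 became 6, where the share was 3.55%. Dcx, a microtubule protein gene of migrating neurons, had 1.55, 120.6 and 1.44 in NS21, NS195R and NSEB5-2C, against 107.3 in Mixture. Ebf3, which acts downstream of neurogenins, had 12.3, 1794 and 9.21, against 206.8 in Mixture. The mean of the lines minus Mixture was -1.71 log2 units by this probe and positive by 1 further probe of Ebf3. Stmn2, a gene of growing axons, went the other way at 331.3, 1.69 and 32.1 in NS21, NS195R and NSEB5-2C, against 115.8 in Mixture. By limma 0 of the 21 measured genes of this list were called, and an unadjusted p under 0.05 was reached by 1 higher and 1 lower gene.

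Markers of neurons and neuroendocrine cells were present beside the members and varied by line. Of 10 neuron markers, NS21 had 7 well above background, NS195R 9 and NSEB5-2C 5, against 10 in Mixture. Their summed intensity was 626.3, 3289 and 524.4 in the same lines, against 527.1 in Mixture. Map2, a microtubule protein gene of dendrites, gave 79.6, 2239 and 53.7 of these sums, against 111.8 in Mixture. The called gene was Slc17a6, a glutamate transporter gene of neurons (limma adjusted p = 0.0371), which was also dim in every line, so that its p rests on no measured spread. Of 10 neuroendocrine markers, NS21 had 6 well above background, NS195R 7 and NSEB5-2C 3, against 7 in Mixture, and 0 passed limma, also at an unadjusted p under 0.05. Their summed intensity was 422.0, 544.1 and 47.4 in these lines, against 1469 in Mixture. Ddc, 1 of these markers, gave 282.9, 16.4 and 10.3 of these sums in NS21, NS195R and NSEB5-2C, against 662.8 in Mixture. Of the 11 neural progenitor markers, 6 were brightest in NS195R by 2-fold or more, and 5 under normexp. The shares over all gene names were 7.36% and 3.55%. Among these markers limma called 0, while 1 was higher by an unadjusted p under 0.05. The part of these cells in the levels of Hes6, Insm1, Myt1 and Neurod4 was not tested.

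The REST complex, which silences neuronal genes outside neurons, had all 6 listed genes well above background in every line. All 6 of its measured genes passed the 1.5-fold rule, and the share over the gene names tested was 36.0%. Median scaling left 4 of 6, where 22.9% of gene names passed. Rest itself had 1098, 581.9 and 791.1 in NS21, NS195R and NSEB5-2C, against 499.5 in Mixture, so that NS195R was the lowest line. Rcor2, a corepressor gene, had 3641, 2233 and 3979, against 521.0 in Mixture. By limma 0 of the 6 were called, and 4 were higher at an unadjusted p under 0.05. The relatives of Insm1 and Myt1 were dim: of 5, only the scratch gene Scrt2 was measured in all lines, and limma called 0, with 1 lower at an unadjusted p under 0.05. That lower gene was Myt1l, a neuronal relative of Myt1, at 1.81, 7.47 and 1.72 in the lines, none flagged well above background, against 37.0 in Mixture. Myt1l entered the test through Mixture alone, so that its p rests on no measured spread.

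Across the 4 arrays, the genes whose pattern lay nearest to Hes6 were the calcium pump gene Atp2b1 and Vps37d, at distances of 0.0565 and 0.0755 log2 units. For Insm1 they were Cadps2, which acts in secretory vesicle release, and Sec16b, at 0.0595 and 0.0881. The distance was taken over levels centred on their own means with dim values raised, and 4 arrays leave room for many genes of like pattern.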

How the data were processed

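Spot intensity values were deposited by the authors as Agilent Feature Extraction 9.5.3.1 output, with spatial and multiplicative detrending on, local background correction off and surrogate values in place of very dim signals, per the file headers. The deposited value table held the same intensity at all 45018 features, with 0 columns of other samples. The 4 arrays lay on 1 slide and were read in 1 scan, which leaves no batch to test. Processed signals of 43379 non-control spots were taken to log2, the 75th percentile of each array was subtracted, flagged spots were left out and spots of a probe averaged. A member or list gene was counted through its probe with the highest mean. Symbols of list genes were matched by the name in the files or by RefSeq transcript (GRCm38.p6). Probe positions are not printed because their build is not stated.

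The NPC lines were compared with Mixture in limma 3.58.1 (R 4.3.3), two-sided, with Benjamini-Hochberg adjustment over the 29699 probes well above background on at least 1 array. Spread was estimated from the lines with 2 residual and 1.41 prior degrees of freedom, and Mixture, with 1 array, was taken to share it. Members, lists and rules were chosen with earlier results of these data known. The 12 other lists hold 122 entries. Named list genes were those past limma, or among the 4 with the largest difference from Mixture or the 3 with the largest range over lines. Alternatives covered background correction, scaling, probe choice, flagged spots, dim values, filters, the variance prior and each line left out. The number of arrays limits all precision. The values of 1 gene of the other lists are not reported here.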

Additional observations from a re-analysis of the deposited data

Results flagged for a closer look

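Insm1 was above Mixture in NS195R (strain 129/Sv) and below it in NS21 and NSEB5-2C (both 129/Ola), with 3.17 log2 units between the highest and the lowest line after dim values were raised. The second probe of Hes6 showed the same split with 1.47 log2 units, although its difference from Mixture in NSEB5-2C was -0.01 and its first probe was above Mixture in all 3 lines. With median scaling, Insm1 in NS195R was -0.16 from Mixture. Each line has 1 array, and these differences were not tested.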

How the results depend on the processing

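The number of members brightest in NS195R by 2-fold or more was 4, and 1 under normexp with offset 50, which adds the same amount to bright and dim signals. A 4-fold limit gave 3, and the other alternatives run gave 4. Calls by limma were 0 higher and 0 lower under all 12 alternatives, and leaving out each line gave 0 to 0. The 1.5-fold rule kept 0 members under all 8 of its alternatives. The difference of Neurog1 from Mixture changed sign to 0.053 with normexp and 0.73 with quantile normalization, and spanned -0.15 to 0.10 without each line. The second probe of Hes6 turned to -0.21 with median scaling and spanned -0.13 to 0.61 without each line, and Myt1 spanned -0.21 to 2.28; in each case the line whose loss turned the sign was NS195R. The cause of these reversals was not tested, and none of the values passed the test. The sign of Hes6 (first probe, 0.02 to 0.78), Insm1 (-4.68 to -0.49) and Neurod4 (0.14 to 2.47) was the same under every alternative run. For Hes6, 0.02 with median scaling was far below its SE of 0.72. Without NS195R, the arrays left for Neurod4 (0.14) and Myt1 (-0.21) were all dim, so these signs cannot be read. The lines left for Insm1 were dim there too, so -4.68 is not a measured size. Over all probes, the calls were 280 higher and 2340 lower, against 1324 and 2487 with normexp, 932 and 2210 with quantile normalization and 112 and 2515 with median scaling. They ended without any 1 line or with only probes above background on all arrays. No paired analysis was possible because Mixture has 1 array and the numbers of the lines only name them. Signals under about 8 units, as for Neurog1, Neurog2, Neurod1 and Atoh1, cannot be ordered.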
